A study of Mus musculus with 8 samples.

Results

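The genes described here are 34 genes of the cell division cycle, chosen by name for their roles in DNA replication and mitosis. A gene was represented where a probe set of the array carried its symbol alone, which held for 33 of the 34 genes, among 18194 genes so represented. These 33 genes had 75 probe sets, and 31 of them were bright enough to be tested among 11232 genes. Ccnb1 had no probe set of its own symbol here, and Ttk and Tyms lay below the brightness filter. RNA came from epididymal fat, a visceral depot next to the testis, of male C57BL/6J mice that were 6 weeks old at purchase. Of the 4 groups, 3 ate a high-fat diet with 30% of calories from fat for 24 weeks and were then kept for the next 5 weeks on that diet with telmisartan (HFD+Tel), with candesartan (HFD+Can) or with no drug (HFD). The last group ate chow with 10% of calories from fat. Each drug was given in drinking water at about 3 mg/kg/day, and both block the angiotensin II type 1 receptor. Each group held 2 mice with 1 array each, so every p-value below rests on the spread between pairs of mice.

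A dividing cell copies its DNA in S phase, with the Mcm proteins as the helicase, Pcna as the sliding clamp of the polymerases and ribonucleotide reductase as a source of nucleotides. It then enters mitosis under Cdk1 and its cyclins, builds a spindle, and leaves mitosis when Cdc20 directs the anaphase-promoting complex to destroy cyclin B. Most of these genes are transcribed in waves, so their RNA is abundant mainly in cells that are cycling. Mature adipocytes do not divide, and in fat the dividing cells are chiefly precursor, vascular and immune cells, including macrophages that can proliferate within the tissue in obesity. In a bulk tissue, fewer cycling cells and less RNA per cell cannot be told apart.

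Signals are array intensities scaled to a common trimmed mean, and log2 differences are taken between these scaled values. Before scaling, the trimmed means lay between 178 and 265. The 3' to 5' probe set ratio of actin lay between 1.18 and 1.22. Adipoq, which encodes the adipocyte hormone adiponectin, had signals from 15423 to 18324 on the 8 arrays, so each sample carried strong adipocyte RNA. The chow arrays stood apart from each other in the genes described here: chow array 1 was above chow array 2 in 31 of the 31 tested genes. The median log2 difference between them was 2.00 over these genes and 0.0035 over all 11232 genes. For that reason the main diet results are given with both chow arrays and with each of them left out.

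Several of these genes share short elements near their start sites. Windows of 300 bases (250 before and 50 after the start) from RefSeq on build GRCm38.p6 were matched for 28 of the 34 genes, and Ccna2, Ccnd1, Aurkb, Kif20a, Mcm4 and Foxm1 were not in the table. The cell cycle genes homology region (CHR, searched as TTTGAA or TTCGAA) is known as the element at which the DREAM and MuvB complexes act on late cell cycle genes, often beside CCAAT boxes. The E2F motif, searched as TTTNNCGC with each N being C or G, is known from S phase genes. Both strands were searched. The 6 windows below are shown because they come from the 4 genes with a large gap between the chow arrays that are read closely below, and from 2 replication genes with a smaller one. They read 5′ to 3′ on the strand of the gene, with capitals at each match. The coordinates are chr4:118437294-118437593 (minus strand) for Cdc20, chr9:70421505-70421804 (minus) for Ccnb2, chr10:69352863-69353162 (minus) for Cdk1, chr2:164769679-164769978 (plus) for Ube2c, chr8:75109259-75109558 (plus) for Mcm5 and chr2:132253131-132253430 (minus) for Pcna.
Cdc20: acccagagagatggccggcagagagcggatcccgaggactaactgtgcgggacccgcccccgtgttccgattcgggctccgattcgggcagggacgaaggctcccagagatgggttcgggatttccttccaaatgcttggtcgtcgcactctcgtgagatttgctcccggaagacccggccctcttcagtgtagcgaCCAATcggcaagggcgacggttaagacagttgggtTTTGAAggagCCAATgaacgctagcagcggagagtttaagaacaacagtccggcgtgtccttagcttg
Ccnb2: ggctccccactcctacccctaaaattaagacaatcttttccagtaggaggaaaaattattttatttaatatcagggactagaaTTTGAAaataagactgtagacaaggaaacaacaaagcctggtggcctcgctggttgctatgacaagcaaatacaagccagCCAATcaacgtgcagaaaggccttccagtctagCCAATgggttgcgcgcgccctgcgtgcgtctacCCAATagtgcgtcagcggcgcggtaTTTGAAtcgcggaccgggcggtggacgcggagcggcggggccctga
Cdk1: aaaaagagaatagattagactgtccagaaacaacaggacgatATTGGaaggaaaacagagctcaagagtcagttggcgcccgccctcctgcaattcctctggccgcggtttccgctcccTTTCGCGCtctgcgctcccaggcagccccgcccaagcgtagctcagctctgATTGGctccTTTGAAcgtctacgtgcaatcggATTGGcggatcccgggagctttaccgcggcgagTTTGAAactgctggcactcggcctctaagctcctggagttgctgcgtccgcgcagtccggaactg
Ube2c: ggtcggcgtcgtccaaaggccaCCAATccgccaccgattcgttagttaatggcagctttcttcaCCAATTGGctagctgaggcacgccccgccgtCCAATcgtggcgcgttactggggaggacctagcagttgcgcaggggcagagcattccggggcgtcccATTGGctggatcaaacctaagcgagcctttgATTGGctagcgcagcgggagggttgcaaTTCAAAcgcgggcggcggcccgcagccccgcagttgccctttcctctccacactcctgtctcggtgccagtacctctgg
Mcm5: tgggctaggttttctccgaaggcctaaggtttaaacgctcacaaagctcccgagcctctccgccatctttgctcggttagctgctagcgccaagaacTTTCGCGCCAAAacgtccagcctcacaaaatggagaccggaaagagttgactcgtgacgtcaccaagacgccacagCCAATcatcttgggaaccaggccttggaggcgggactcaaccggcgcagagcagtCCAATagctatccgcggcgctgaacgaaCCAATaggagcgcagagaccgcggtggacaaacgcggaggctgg
Pcna: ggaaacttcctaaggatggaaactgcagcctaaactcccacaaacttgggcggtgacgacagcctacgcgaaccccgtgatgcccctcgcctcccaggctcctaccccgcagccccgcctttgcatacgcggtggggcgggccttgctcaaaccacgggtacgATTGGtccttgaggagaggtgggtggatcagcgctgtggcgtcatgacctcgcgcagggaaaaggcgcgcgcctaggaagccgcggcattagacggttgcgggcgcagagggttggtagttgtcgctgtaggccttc
In Ube2c a CCAAT on each strand overlaps in CCAATTGG, and in Mcm5 an E2F match on each strand overlaps in TTTCGCGCCAAA. A CHR match was present in 15 of the 28 genes, against 19.2% of all 32851 promoter windows. CCAAT was present in 23 of 28, against 37.4% of all windows, and both elements together in 15 of 28, against 7.52%. The E2F motif was in 4 of 28 (Mcm3, Mcm5, Mcm6 and Cdk1), against 2.26%. By role, CHR was in 1 of the 8 replication genes with a window and in 14 of the 20 other genes, while E2F was in 3 of the 8 and in 1 of the 20. These are matches of letters, and no binding was measured.

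The gap between the chow mice was widest among genes that act late in the cycle. Cdc20, which activates the anaphase-promoting complex, had signals of 187 and 197 in HFD+Tel, 233 and 223 in HFD+Can, 252 and 216 in HFD, and 758 and 90.4 in chow. Chow array 1 was thus 8.38 times chow array 2, and all 6 high-fat arrays lay between them. Ube2c, the ubiquitin-conjugating enzyme that works with the same complex, had 393 and 397 in HFD+Tel, 318 and 350.2 in HFD+Can, 365 and 267 in HFD, and 664 and 138 in chow. Its high-fat arrays again fell inside the chow pair, which differed 4.81-fold.

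Cdk1 is the kinase that drives entry into mitosis, and Ccnb2 is one of its cyclins. Cdk1 had 297 and 379 in HFD+Tel, 306 and 397 in HFD+Can, 358 and 296 in HFD, and 523 and 72.0 in chow. Ccnb2 had 205 and 242 in HFD+Tel, 199.7 and 219 in HFD+Can, 224 and 201 in HFD, and 467 and 65.5 in chow. In both genes chow array 1 was the highest of the 8 arrays and chow array 2 the lowest, with ratios of 7.27 for Cdk1 and 7.12 for Ccnb2. The S and G2 phase cyclin Ccna2 showed the same order, with 216 and 326 in HFD+Tel, 234 and 282 in HFD+Can, 281 and 263 in HFD, and 396 and 98.9 in chow. Ccnd1 and Ccne1, the cyclins of G1 and of entry into S phase, differed less between the chow arrays, at 1.59-fold and 1.91-fold. Over the 5 tested cyclins and Cdk1 the median log2 difference was 2.00.

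**Figure D1:**
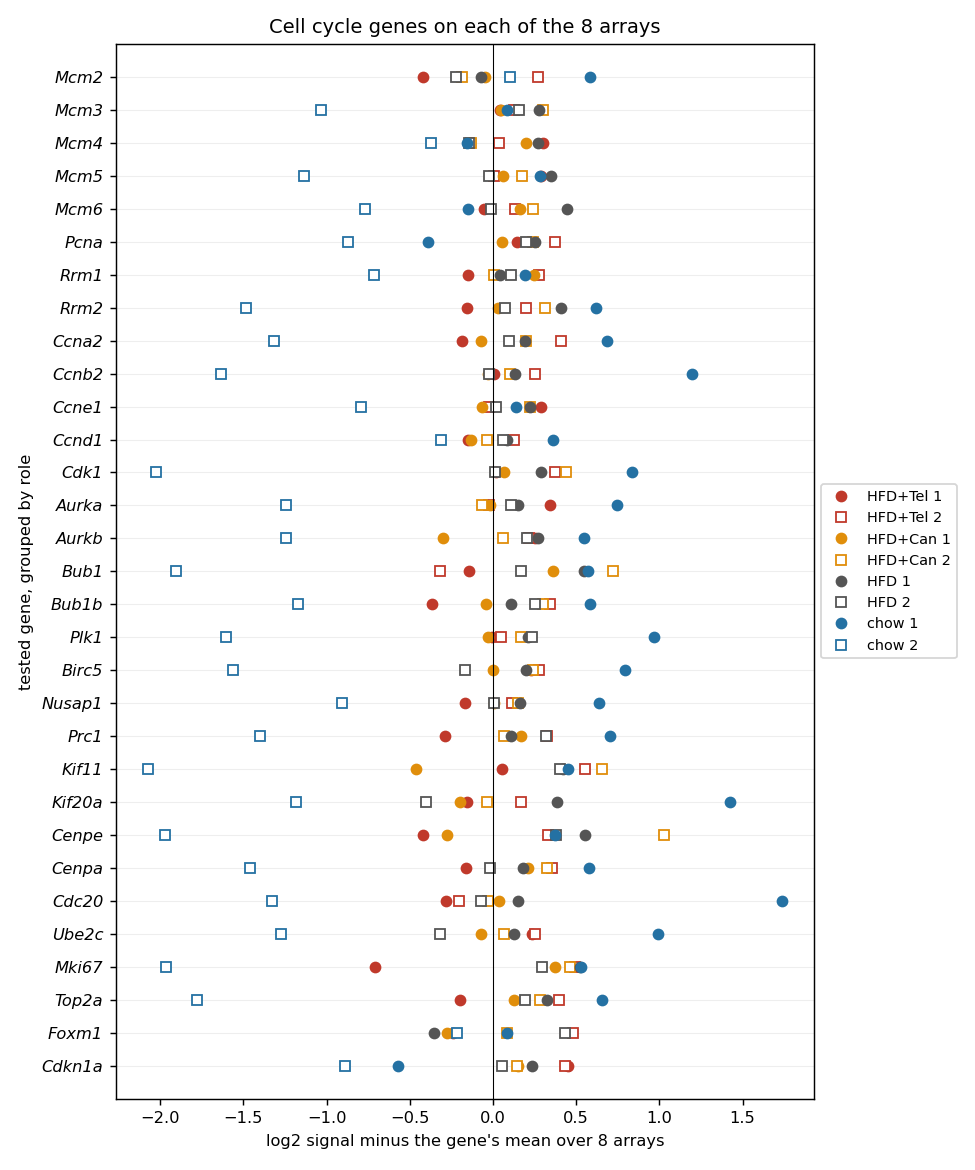
Each row is a tested cell cycle gene, grouped by role, and each point an array, placed by its log2 signal minus the gene's mean over the 8 arrays, with colour for the group and filled circles for array 1, open squares for array 2. Chow array 2 is the lowest point for 29 of the 31 genes and chow array 1 the highest for 19, with the 6 high-fat arrays nearer the mean.

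Among the mitotic kinases and checkpoint genes the chow difference ranged from 1.76 (Bub1b) to 2.57 (Plk1) on the log2 scale. Plk1, a kinase needed for spindle formation and mitotic exit, had 82.4 and 85.6 in HFD+Tel, 80.9 and 93.0 in HFD+Can, 95.7 and 97.4 in HFD, and 162 and 27.2 in chow. The 6 high-fat arrays of Plk1 were close together and the chow arrays lay on either side of them. Aurka and Aurkb, the Aurora kinases, differed 3.96-fold and 3.46-fold between the chow arrays. Birc5 (survivin), the partner of Aurkb in the chromosomal passenger complex, differed 5.13-fold. The checkpoint kinase Bub1 differed 5.56-fold and its relative Bub1b 3.38-fold. Second probe sets past the filter gave smaller log2 differences between the chow arrays, 0.75 for Aurkb and 1.12 for Bub1b.

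The spindle, kinetochore and cytokinesis genes had chow differences from 1.55 to 2.61 on the log2 scale. The lowest belonged to Nusap1, a microtubule binding protein of the spindle, and the highest to Kif20a, a kinesin of cytokinesis. Kif20a had 49.4 and 61.8 in HFD+Tel, 48.0 and 53.7 in HFD+Can, 72.0 and 41.6 in HFD, and 147 and 24.2 in chow. Kif11, the motor that separates the spindle poles, differed 5.76-fold in chow, Cenpe, a kinetochore motor, 5.06-fold, Prc1, a bundler of the central spindle, 4.30-fold, and Cenpa, the centromeric histone, 4.10-fold. For Kif11 and Cenpe, as for Bub1, chow array 2 was lowest, but chow array 1 was not the highest of the 8 arrays.

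Mki67 and Top2a are widely used proliferation markers, one encoding the Ki-67 protein and the other topoisomerase II alpha. Mki67 had 210.0 and 483 in HFD+Tel, 444 and 473 in HFD+Can, 493 and 419.7 in HFD, and 494 and 87.7 in chow. Its low values were chow array 2 and, less far down, HFD+Tel array 1. Top2a had 239 and 361 in HFD+Tel, 299.5 and 333 in HFD+Can, 344 and 314 in HFD, and 432 and 80.0 in chow. Foxm1, a transcription factor of G2 and M phase genes, had 58.1 and 95.8 in HFD+Tel, 56.7 and 72.9 in HFD+Can, 53.7 and 92.8 in HFD, and 72.9 and 59.1 in chow. On this probe set the chow arrays fell within the range of the other groups. Among its dimmer probe sets, below the filter, one had 55.9 and 12.1 in chow and another had 34.8 in chow array 1 and the floor value of 6.69 in chow array 2, so the probe sets of Foxm1 disagreed on the size of the gap.

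Replication genes differed less between the chow mice, with a median log2 difference of 0.76 and a range from 0.21 to 2.11 over the 8 tested. Rrm2, the regulated subunit of ribonucleotide reductase, stood at the upper end with 270.4 and 346 in HFD+Tel, 308 and 375 in HFD+Can, 401 and 317 in HFD, and 464 and 108 in chow. Mcm5 had 593 and 488 in HFD+Tel, 506 and 548 in HFD+Can, 620.0 and 478 in HFD, and 591 and 222 in chow. In Mcm5 only chow array 2 stood apart. Mcm4 was at the lower end, with a chow ratio of 1.16, and Mcm6, Rrm1, Mcm3 and Mcm2 had ratios of 1.54, 1.87, 2.16 and 1.40.

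Counted over the 31 genes, chow array 1 was at least 2-fold above chow array 2 in 22, against 2.15% of all genes tested, and at least 4-fold above it in 16, against 0.57%. Chow array 2 was the lowest of the 8 arrays in 29 genes, with Mcm2 and Foxm1 as the exceptions, against 17.5% of all genes. Chow array 1 was the highest in 19 genes, against 20.5% of all genes. All 6 high-fat arrays lay between the chow arrays in 18 genes, against 3.84% of all genes. Since chow array 1 was above chow array 2 in all 31 genes, it was necessarily the highest in each of those 18. That order, with chow array 1 highest and chow array 2 lowest, held for 2.27% of all genes. No other pair of arrays in a group was as far apart: the median log2 difference of array 1 minus array 2 was −0.28 in HFD+Tel, −0.15 in HFD+Can and 0.16 in HFD. Where a gene had several probe sets past the filter (15 genes), all agreed on which chow array was higher. Ttk, a checkpoint kinase below the filter, had 35.4 and 45.2 in HFD+Tel, 42.4 and 33.6 in HFD+Can, 43.5 and 34.4 in HFD, and 71.6 and 15.4 in chow on one of its probe sets.

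**Figure D2:**
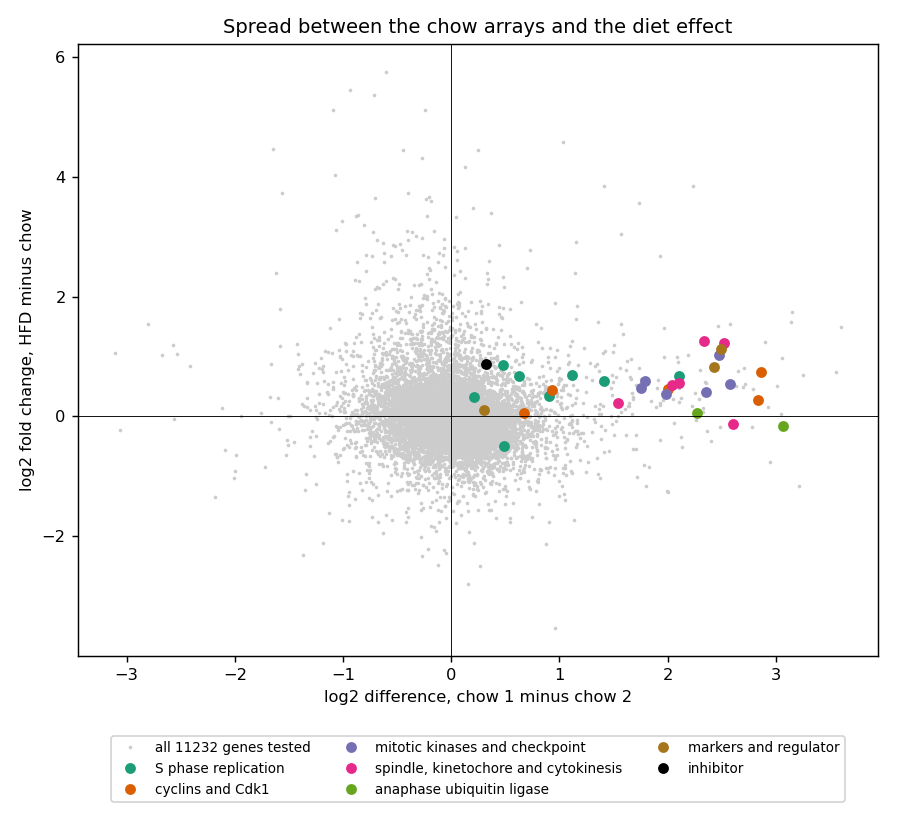
Each point is a gene: the horizontal axis is the log2 difference of chow array 1 minus chow array 2, and the vertical axis the log2 fold change of HFD over chow. The 31 cell cycle genes, coloured by role, all lie right of 0, from 0.21 to 3.07, while the 11232 genes tested (grey) centre near 0.

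The genes also moved together across arrays. Pairwise Pearson correlations of the log2 signals had a median of 0.83 over the 8 arrays, and 0.34 over the 6 high-fat arrays alone. The points share the arrays, and the first value carries the gap between the chow arrays. The log2 signals most like those of Cdk1 were those of Cenpa (r = 0.99), Rrm2 (r = 0.99) and Top2a (r = 0.99), all over 8 arrays. Mcm2 (r = 0.14) and Foxm1 (r = 0.31) were least like it.

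For the effect of the diet itself, Pcna and Cdkn1a were higher in HFD than in chow and no gene was called lower. This was 2 of 31 genes called by limma at a Benjamini-Hochberg adjusted p under 0.05, where 8.09% of all genes were called (5.15% as higher and 2.95% as lower). The share among the cell cycle genes was thus near that of all genes. Pcna had 4398 and 4235 in HFD, against 2821 and 2023 in chow, and the arrays did not overlap. Its mean signal was 4316 ± 115 in HFD and 2422 ± 564 in chow (SD, n = 2 each), a log2 fold change of 0.85 (95% CI 0.47 to 1.24, limma adjusted p = 0.0199). Both drug groups also lay above chow and overlapped with HFD, with 4089 and 4784 in HFD+Tel and 3836 and 4367 in HFD+Can.

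Cdkn1a encodes p21, which holds cells in G1 by inhibiting cyclin-dependent kinases and also binds the Pcna protein. It had 1325 and 1169 in HFD, against 759 and 608 in chow, with no overlap. Its mean was 1247 ± 110.1 in HFD and 684 ± 107 in chow (SD, n = 2 each), a log2 fold change of 0.87 (95% CI 0.55 to 1.20, limma adjusted p = 0.0098). A second probe set of the gene gave 1.12 (limma adjusted p = 0.0108 over all probe sets). The direction of change was thus the same for the inhibitor p21 as for Pcna, which is part of the replication machinery.

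**Figure D3:**
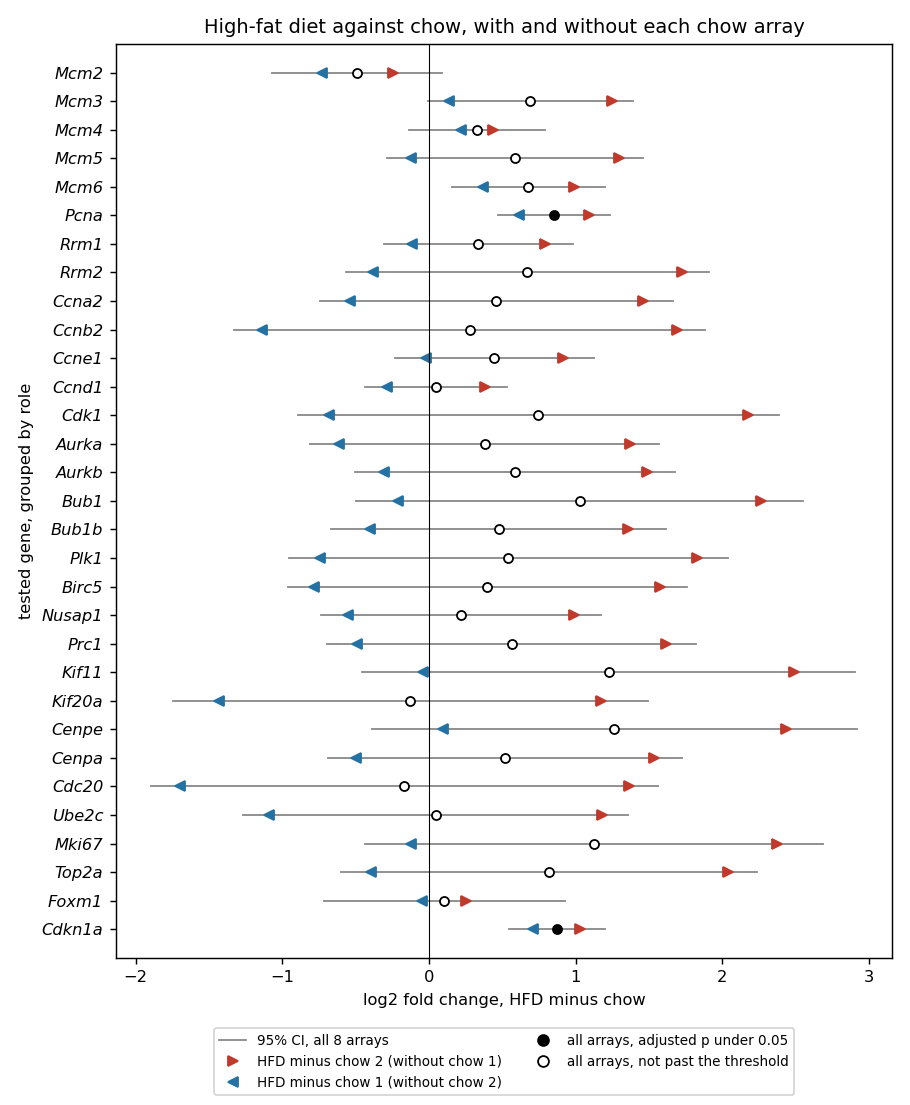
The log2 fold change of HFD over chow is drawn for each tested cell cycle gene as a circle (filled where called) with its 95% confidence interval from limma, and triangles give the values obtained without chow array 1 and without chow array 2. Pcna and Cdkn1a lie above 0 in all 3 settings, as do Mcm3, Mcm4, Mcm6 and Cenpe, which were not called with both chow arrays. Cdc20, Ccnb2 and Ube2c are among the genes that change sign with the chow array kept.

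The remaining genes could not be called in either direction with both chow arrays. Fold changes were positive in 28 of the 31 genes and negative in Mcm2, Kif20a and Cdc20, with a median of 0.52, against −0.013 over all genes. The arrays of HFD and chow were separate in 7 genes, against 58.1% of all genes. Of these, 6 lay higher in HFD (Mcm3, Mcm4, Mcm6, Pcna, Cenpe and Cdkn1a), against 27.8% of all genes, and 1, Mcm2, lay lower, against 30.3%. Mcm6 had 693 and 504 in HFD, against 458 and 298 in chow, a log2 fold change of 0.68 that missed the threshold (95% CI 0.16 to 1.20, limma adjusted p = 0.112). Without chow array 1 it was 0.99 and without chow array 2 it was 0.37. Mcm2 had 191 and 172 in HFD, against 301 and 215 in chow, a log2 fold change of −0.49 (95% CI −1.07 to 0.09, limma adjusted p = 0.284). Its probe sets disagreed, and a second one gave 0.077 (limma adjusted p = 0.890 over all probe sets). The first gave −0.25 without chow array 1 and −0.73 without chow array 2. Intervals were wide for the late cycle genes: that of Cdc20 ran from −1.89 to 1.56 and that of Cdk1 from −0.89 to 2.39.

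The answer for the late cycle genes depended on which chow mouse was kept. With chow array 1 left out, limma called 20 of the 31 genes as higher in HFD and 0 as lower, where 4.54% of all genes were called (3.39% as higher), and the median log2 fold change was 1.37. With chow array 2 left out, it called Cdkn1a as higher and Ccnb2, Cdc20 and Ube2c as lower, where 5.48% of all genes were called (3.55% as higher and 1.92% as lower), and the median was −0.38. In these fits the single chow array was assumed to vary like the other groups. Cdc20 changed by 1.37 on the log2 scale without chow array 1 (limma adjusted p = 0.0131) and by −1.70 without chow array 2 (limma adjusted p = 0.0053). Ccnb2 changed by 1.69 (limma adjusted p = 0.0086) and by −1.14 (limma adjusted p = 0.0218) in the same order, and Ube2c by 1.18 (limma adjusted p = 0.0308) and −1.09 (limma adjusted p = 0.0337). A call in opposite directions was thus made for these 3 genes from the same HFD arrays.

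Cdkn1a stayed above chow with either chow array, at 1.03 without chow array 1 (limma adjusted p = 0.0125) and 0.71 without chow array 2 (limma adjusted p = 0.0362). Its call was lost without HFD array 1 (0.78, limma adjusted p = 0.113) and without HFD array 2 (0.96, limma adjusted p = 0.0652). Pcna was called without chow array 1 (1.09, limma adjusted p = 0.0110). It was not called without chow array 2 (0.61, limma adjusted p = 0.0564), HFD array 1 (0.83, limma adjusted p = 0.146) or HFD array 2 (0.88, limma adjusted p = 0.134). Both calls also ended when no filter on dim probe sets was used and when arrays were centred on the median.

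Neither drug changed a cell cycle gene past the threshold. Against HFD, limma called 0 of 31 genes with telmisartan and 0 with candesartan, and the same was true of all 11232 genes (0% in each comparison). At an unadjusted p under 0.05 there were 0 of the 31 genes in each, against 6.2% of all genes for telmisartan and 1.25% for candesartan. The median log2 fold change over HFD was −0.017 with telmisartan (range −0.59 to 0.34) and −0.041 with candesartan (range −0.36 to 0.19). All groups, chow included, share 1 estimate of the spread, and the median 95% interval of the 31 genes reached 1.20 to each side. Fitted on the 6 high-fat arrays alone, a fit added after the data were seen, it reached 0.47 to each side, or 1.38-fold. That fit called 0 of all 11232 genes in each comparison, so also 0 of the 31 genes against HFD and 0 between the drugs. At an unadjusted p under 0.05 it had 1 of the 31 genes for telmisartan against HFD, 0 for candesartan against HFD and 2 for telmisartan against candesartan. The share of all genes at this cut was not computed for that fit, so these counts are not read as a result.

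Cdkn1a was the gene with the smallest p in the comparison of telmisartan with HFD. It had 1540.2 and 1521 in HFD+Tel, against 1325 and 1169 in HFD, so the arrays did not overlap, as was so for 37.9% of all genes. The log2 fold change was 0.30 (95% CI −0.03 to 0.62, limma adjusted p = 0.766). In the fit of the 6 high-fat arrays its interval was 0.02 to 0.57 (limma unadjusted p = 0.0364, adjusted p = 0.636). In HFD+Can it had 1251 and 1244, which lay inside the HFD pair. A second probe set of Cdkn1a had 180 and 201 in HFD+Tel, 176 and 178 in HFD+Can, and 198 and 189 in HFD. On that probe set HFD+Tel overlapped with HFD, and HFD+Can lay below HFD. The lowest fold change with telmisartan belonged to Bub1, with 46.0 and 40.8 in HFD+Tel against 74.3 and 57.3 in HFD, a log2 fold change of −0.59 (95% CI −2.11 to 0.93, limma adjusted p = 0.837). With candesartan it belonged to Aurkb, with 87.9 and 113 in HFD+Can against 131 and 125 in HFD, a log2 fold change of −0.36 (95% CI −1.45 to 0.73, limma adjusted p = 1.0). A second probe set of Aurkb went the other way, with 76.5 and 80.1 in HFD+Can against 72.8 and 58.8 in HFD.

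Dose and duration were equal for the drugs, so they could be compared directly, in 1 pair. Telmisartan and candesartan did not differ past the threshold in any of the 31 genes, nor in any of all 11232 (0%), and at an unadjusted p under 0.05 there were 0 of the 31 genes, against 4.9% of all genes. The median log2 difference, telmisartan minus candesartan, was 0.030 (range −0.77 to 0.35). Bub1 was at the low end, with 46.0 and 40.8 in HFD+Tel and 65.3 and 83.8 in HFD+Can, a difference of −0.77 (95% CI −2.29 to 0.75, limma adjusted p = 0.927). Cdkn1a differed by 0.30 (95% CI −0.03 to 0.62, limma adjusted p = 0.924). In the fit of the 6 high-fat arrays the interval of Bub1 was −1.42 to −0.12 (limma unadjusted p = 0.0269) and that of Cdkn1a 0.02 to 0.57 (limma unadjusted p = 0.0379), both at an adjusted p of 0.803. A p above the threshold does not show that the drugs act alike.

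**Figure D4:**
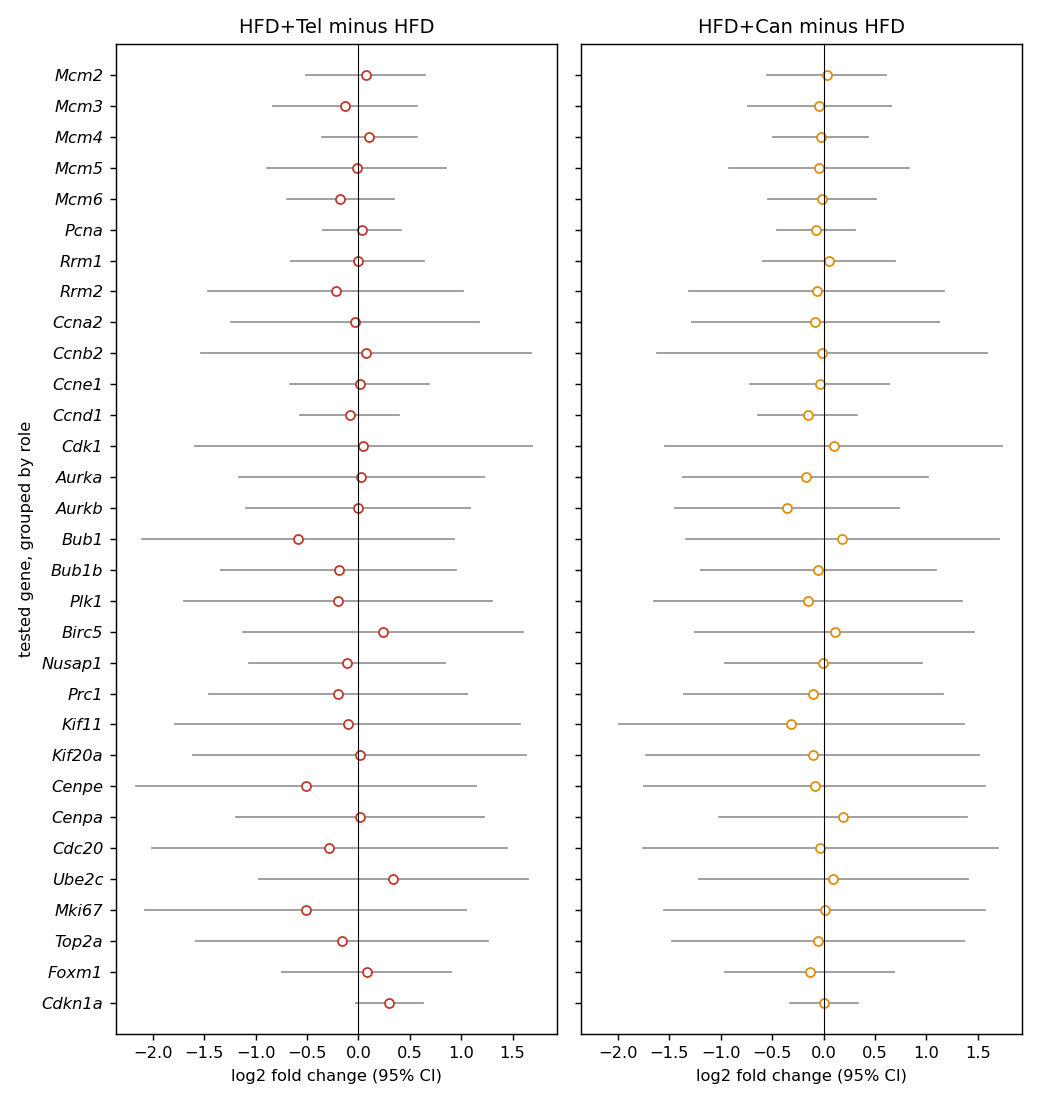
Log2 fold changes of HFD+Tel over HFD (left) and of HFD+Can over HFD (right) are drawn for the 31 tested cell cycle genes with 95% confidence intervals from limma. The points lie between −0.59 and 0.34 with telmisartan and between −0.36 and 0.19 with candesartan, and every interval, from the fit of all 8 arrays, includes 0.

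Each drug group was also set against chow, with the same chow arrays as in the diet comparison. With telmisartan, limma called Cdkn1a and Pcna as higher, 2 of 31 genes, where 8.44% of all genes were called. Cdkn1a was higher by 1.17 on the log2 scale (95% CI 0.84 to 1.50, limma adjusted p = 0.0029) and Pcna by 0.89 (95% CI 0.51 to 1.27, limma adjusted p = 0.0159). With candesartan the same 2 genes were called, where 6.59% of all genes were called. Cdkn1a was higher by 0.88 (95% CI 0.55 to 1.20, limma adjusted p = 0.0103) and Pcna by 0.78 (95% CI 0.39 to 1.16, limma adjusted p = 0.0312). Since the 3 comparisons share their chow arrays, they are not separate evidence. The call of Cdkn1a with telmisartan held with each array left out. Pcna lost its call with telmisartan without chow array 2 (0.65, limma adjusted p = 0.0532) or HFD+Tel array 2 (0.78, limma adjusted p = 0.0588). With candesartan Pcna lost it without chow array 2 (0.54, limma adjusted p = 0.0932), either HFD array (0.78, limma adjusted p = 0.0708 and 0.0715) or either HFD+Can array (0.87 and 0.68, limma adjusted p = 0.105 and 0.257). Cdkn1a lost it with candesartan without either HFD+Can array (0.87 and 0.88, limma adjusted p = 0.0779 and 0.109).

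Other genes of the cycle were taken from lists that leave out the 34, and their counts are read against the same 8.09% of all genes called (5.15% higher and 2.95% lower). In the replication and S phase list 27 of 31 genes were tested and 0 were called in HFD over chow, with a median log2 fold change of 0.18. Its smallest p-values belonged to Cdt1, which licenses replication origins (1.15, limma adjusted p = 0.0769), and Gins1, a part of the replicative helicase (0.75, limma adjusted p = 0.0971). Cdt1 was called without chow array 1 (1.76, limma adjusted p = 0.0077) and not without chow array 2 (0.53, limma adjusted p = 0.163). Gins1 was called in neither setting (1.04 without chow array 1 and 0.46 without chow array 2). In the mitosis and G2/M list 44 of 52 were tested, 1 was called higher and 0 lower, with a median of 0.31. That gene was Gtse1, a microtubule-associated regulator of p53, with 228 and 145 in HFD against 95.8 and 62.7 in chow (1.23, limma adjusted p = 0.0371). These medians too turned on the chow arrays, in a comparison added after the data were seen. Without chow array 1 they were 0.60 for the replication genes and 1.15 for the mitosis genes. Without chow array 2 they were −0.19 and −0.67.

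Control of G1 gave single calls. Of 10 G1 cyclins and kinases 1 was called higher and 0 lower: Cdk6, a kinase partner of the D cyclins, had 434 and 544 in HFD against 185 and 164 in chow (1.48, limma adjusted p = 0.0344). Of 5 tested inhibitors of these kinases other than Cdkn1a, 0 were called higher and 1 lower. This was Cdkn2c (p18), which inhibits Cdk4 and Cdk6, with 2196 and 2441 in HFD against 4357 and 4044 in chow (−0.86, limma adjusted p = 0.0375). Of 12 tested p53 targets other than Cdkn1a, 1 was called higher and 0 lower, the stress gene Gadd45b (1.10, limma adjusted p = 0.0185). These 4 calls turned on single arrays and on the processing. Cdk6 and Cdkn2c lost theirs without any one of the chow, HFD or HFD+Can arrays (limma adjusted p from 0.0562 to 0.225 and from 0.0588 to 0.228). Gtse1 lost its call without any one of the HFD or HFD+Can arrays or chow array 2 (limma adjusted p from 0.0719 to 0.247), and Gadd45b without chow array 1 or either HFD array (limma adjusted p from 0.0811 to 0.156). All 4 calls ended with no filter on dim probe sets (limma adjusted p from 0.104 to 0.166). Those of Gtse1, Cdk6 and Cdkn2c also ended without the intensity trend, those of Gtse1 and Cdkn2c under median centring, and that of Gtse1 under quantile normalization and with only the arrays of HFD and chow.

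The gap between the chow arrays extended to these lists in part. Its median was 1.67 on the log2 scale in the mitosis and G2/M list, where all 6 high-fat arrays lay between the chow arrays for 29 of 44 genes (against 3.84% of all genes), and 0.65 in the replication and S phase list. It was 0.024 for G1 cyclins and kinases, 0.11 for the other inhibitors and −0.12 for p53 targets. Among the 100 genes with the largest excess in chow array 1, 19 were genes of the 34 and 25 more came from the mitosis and replication lists.

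Markers of cell types in the tissue differed less between the chow arrays, with list medians from −0.45 for T and NK cells to 0.36 for endothelium. The macrophage markers summed to 16932 and 24864 in HFD+Tel, 18305 and 22725 in HFD+Can, 21749 and 21699 in HFD, and 8619 and 10266 in chow. They were thus higher in chow array 2, the array with low cell cycle signal, than in chow array 1. In HFD over chow 5 of the 6 macrophage markers were called higher (Adgre1, Cd68, Csf1r, Itgax and Cd14). The adipocyte markers summed to 27333 and 28384 in HFD, against 26480 and 31464 in chow, and 2 of the 4 tested, Pparg and Slc2a4, were called lower. The endothelium markers summed to 2037 and 2004 in HFD, against 3785 and 2894 in chow, and 3 of 5 were called lower (Kdr, Tie1 and Emcn). Single markers were called for B cells (Cd22, higher), mast cells (Cpa3, higher) and red blood cells (Alas2, lower), and 0 for T and NK cells, mesothelium, progenitors and stroma, or lymph node. The background for these counts is again 8.09% of all genes. These calls turned in part on the chow arrays. Those of Pparg, Kdr and Cpa3 were lost whichever chow array was left out. Those of Csf1r, Cd14, Cd22 and Emcn were lost without chow array 1. The median log2 fold change of the macrophage markers was 1.53 without chow array 1 and 1.81 without chow array 2. In the same order it was −0.49 and −0.33 for adipocyte markers and −0.48 and −0.85 for endothelium markers. Alas2 changed by −1.86 and −2.02. Of 6 markers of epididymis and testis, tissues next to this fat pad, 5 had a probe set of their symbol alone. These 5 were too dim to be tested (0 passed the filter). They summed to 140 in chow array 1, 56.7 in chow array 2 and 43.6 to 88.1 elsewhere. The part of any of these cell types in the cell cycle values was not tested.

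**Figure D5:**
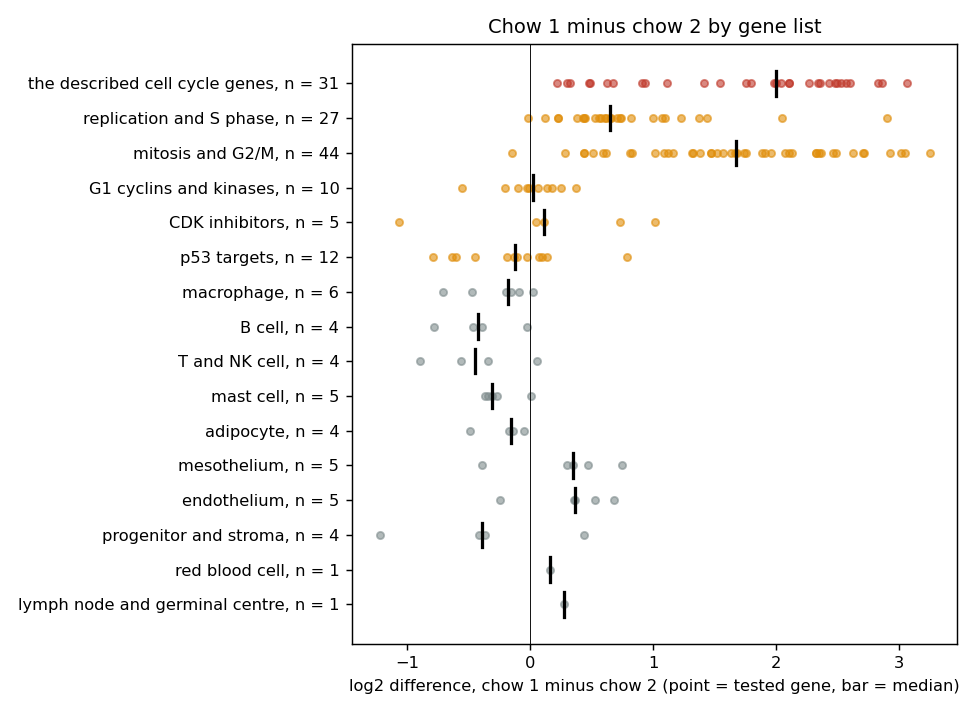
The log2 difference of chow array 1 minus chow array 2 is drawn for each tested gene of the described cell cycle genes, of the other cycle lists and of the cell type marker lists, with a bar at the median. The cell cycle genes (median 2.00) and the mitosis list (1.67) lie right of 0, and the marker medians lie between −0.45 and 0.36.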

How the data were processed

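Epididymal fat RNA of 8 mice was measured on Affymetrix Mouse Genome 430 2.0 arrays with 45101 probe sets. The authors deposited 1 linear intensity for each probe set, computed with GeneChip Analysis Suite per the labels' design text. Which version and scaling they used was not given in the sources used here. Groups were taken from the sample titles, and 0 other columns were present.

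Each array was brought to the same 2%-trimmed mean. Scaled values below the 20th percentile (6.69) were replaced by it, and log2 followed. Probe sets at or above the 50th percentile of mean log2 signal were kept (22519), and a gene is its brightest probe set with 1 symbol in the platform annotation. None of the 31 cell cycle genes tested had a value at that floor (0 of 31).

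The tests used limma 3.58.1 under R 4.3.3: 4 group means, 4 residual degrees of freedom, variances moderated with an intensity trend, two-sided tests and Benjamini-Hochberg adjustment over the 11232 genes in each of 6 comparisons. The fit was tested on simulated data in which a gene had the same spread in every group. That test does not cover the wider spread of the cell cycle genes between the chow arrays. The precision is limited by 2 arrays per group.

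Alternatives were centring on the median, quantile normalization, log2(signal + 16), a lower floor (5th percentile), a stricter filter (70th percentile) or none, the mean of a gene's probe sets, robust moderation, moderation without the trend, only the arrays compared, the replicate number as a block, and each array left out. Every gene of the 34 is named, and from each other list of cycle genes those called in HFD over chow, or the 2 with the smallest p if none was called. Marker lists are given by their called members. The genes and lists were chosen with earlier results of these data known. Promoter windows are RefSeq's on GRCm38.p6, and figures were drawn with matplotlib 3.10.9 in Python 3.11.15.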

Additional observations from a re-analysis of the deposited data

How the results depend on the processing

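The number of cell cycle genes called in HFD over chow was 0 under median centring and 0 with no filter, against 2 as reported, and it was 2 with the replicate block. In HFD+Tel over chow it was 1 with no filter and 1 with only the arrays compared. In HFD+Can over chow it was 0 under median centring, 0 with no filter and 1 with no intensity trend. Leaving out 1 array at a time gave 0 to 20 called genes for HFD over chow (median log2 fold change −0.38 to 1.37), 1 to 20 for HFD+Tel over chow (median −0.56 to 1.40) and 0 to 17 for HFD+Can over chow (median −0.45 to 1.27). The lowest and highest medians and the highest counts came from leaving out a chow array, and the lowest counts from leaving out an HFD, HFD+Tel or HFD+Can array. The drug comparisons kept 0 called genes in every setting run. Under median centring the HFD effect fell below 0 for Ccnd1 (−0.052) and Ube2c (−0.053). Both values stayed above the median of all genes in that setting (−0.11). The sign of the HFD effect turned on leaving out an array for 24 genes. By gene, the log2 fold change of HFD over chow ranged over the left-out arrays as −0.12 to 1.30 for Mcm5, −0.12 to 0.79 for Rrm1, −0.38 to 1.72 for Rrm2, −0.54 to 1.46 for Ccna2, −1.14 to 1.69 for Ccnb2 and −0.019 to 0.91 for Ccne1. It ranged as −0.29 to 0.38 for Ccnd1, −0.68 to 2.18 for Cdk1, −0.61 to 1.37 for Aurka, −0.31 to 1.48 for Aurkb, −0.21 to 2.26 for Bub1 and −0.40 to 1.36 for Bub1b. The values of the next genes ran as −0.75 to 1.83 for Plk1, −0.78 to 1.58 for Birc5, −0.55 to 0.99 for Nusap1, −0.49 to 1.62 for Prc1, −0.038 to 2.49 for Kif11 and −1.43 to 1.17 for Kif20a. The last ones were −0.50 to 1.54 for Cenpa, −1.70 to 1.37 for Cdc20, −1.09 to 1.18 for Ube2c, −0.12 to 2.38 for Mki67, −0.40 to 2.04 for Top2a and −0.29 to 0.50 for Foxm1. Median centring shifted the median of all genes to −0.11 in HFD over chow, 0.26 in HFD+Tel over HFD and 0.16 in HFD+Can over HFD, and changes are read relative to that. The sample titles do not say whether the replicate numbers pair mice. Deviations of same-numbered arrays correlated at −0.04 to 0.21 between groups, which cannot decide it. The fit of all probe sets one by one, the fit of the 6 high-fat arrays and the other lists without each chow array were chosen after seeing the data. The cause of these changes was not tested, and 2 arrays per group limit every value.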

Other observations

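The 100 genes with the largest excess in chow array 1 also held genes outside the cycle lists. The 4 given here were chosen after their values were seen, and no list was counted or tested. The genes outside the lists were not sorted by role, so these 4 do not stand for the rest. Angptl8, a feeding-induced regulator of lipoprotein lipase, had 1971 in chow array 1 and 256 in chow array 2. Acss2, which makes acetyl-CoA from acetate, had 7981 and 1826. Pnpla3, a lipid droplet protein, had 1667 and 418, and Elovl6, a fatty acid elongase, had 1415 and 411.

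Cdkn1b encodes p27, an inhibitor of cyclin-dependent kinases. It had 278 and 275 in HFD+Tel, 363 and 303 in HFD+Can, 454 and 439 in HFD, and 406 and 394 in chow, so both drug groups lay below HFD and chow without overlap. The log2 difference from HFD was −0.69 with telmisartan (unadjusted p = 0.00112, limma adjusted p = 0.766) and −0.43 with candesartan (unadjusted p = 0.0161, limma adjusted p = 1.0). Neither passed the threshold, and the gene was chosen after its values were seen.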
